A study of Rattus norvegicus with 6 samples.

Results

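The miR-200 family and the other epithelial miRNAs measured here are the assays of miR-141, miR-200a, miR-200b, miR-200c, miR-203, miR-205 and miR-429. They were taken by name, as every mouse- or rat-named assay of miR-141, miR-200, miR-203, miR-205 or miR-429, and 7 of the 381 assays on the card, control RNAs included, met this rule. All 7 carry mouse names (mmu-) and were run on rat RNA. In purified rat cardiomyocytes 5 of the 7 gave a signal. In the myocyte-derived cells (MDCs) grown from them only 2 did, mmu-miR-141 and mmu-miR-203.

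The cells came from 2-month-old Wistar-Kyoto rats, as labelled. One group is purified cardiomyocytes (Myocyte 1, 2 and 3) and the other is MDCs (MDC 1, 2 and 3), the small, loosely attached cells harvested from above long-term myocyte cultures in serum-rich medium with bFGF and TGF-β3. Both groups are labelled as cultured for 2 weeks, although the paper's results describe the myocytes of its miRNA comparison as freshly isolated. No cell of the MDC harvest was traced to a myocyte in this assay, and how many rats went into each RNA was not given in the sources used here. Each well of the TaqMan card holds the PCR assay of 1 small RNA, and its value is a Ct, the cycle at which fluorescence crosses a threshold. An earlier Ct means more template. Each Ct was set against U6, a small nuclear RNA read in 4 wells of the same set, and a level is the U6 mean minus the Ct, so that 1 unit stands for 1 cycle, about a doubling. Amplification differs between assays, so tests compared levels within an assay only, and sums or distances over assays are descriptions. The number of molecules behind a Ct is unknown.

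The 6 sets of Ct values were not counted as 6 independent samples. The series design speaks of RNA from 3 batches of each cell type, and the methods of 2 biological and 2 technical repeats, without saying which set is which. The wells without signal were identical in Myocyte 2 and Myocyte 3, and also identical among the 3 MDC sets. Sets that share this pattern were averaged as readings of 1 card, which leaves 2 myocyte samples and 1 MDC sample. Between Myocyte 3 and Myocyte 2 every detected miRNA differed in the same direction, by 0.12 to 0.63 cycles. Between MDC 3 and MDC 2 all 201 did so, by 0.70 to 2.71 cycles. Between MDC 1 and MDC 2 the direction was not shared. The gaps (MDC 1 minus MDC 2) ran from −2.27 to 3.44 cycles, with a median of 1.86. The placing of MDC 1 on the same card thus rests on the wells without signal alone. MDC 1 stands apart from every other set. All 201 of its miRNA Ct values lay within 0.1 cycles of a whole number, at most 0.09 cycles away, whereas 17.2% to 22.4% of values did so in the other 5 sets. A Ct of MDC 1 thus lies close to a full cycle, while its gaps to MDC 2 reach well beyond a full cycle. The cause was not tested. Main U6-relative differences that rest on MDC signal are given with MDC 1 and, beside them, without it. Values with other normalizers or settings, marker sums and likeness distances include MDC 1 unless stated.

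**Figure D1:**
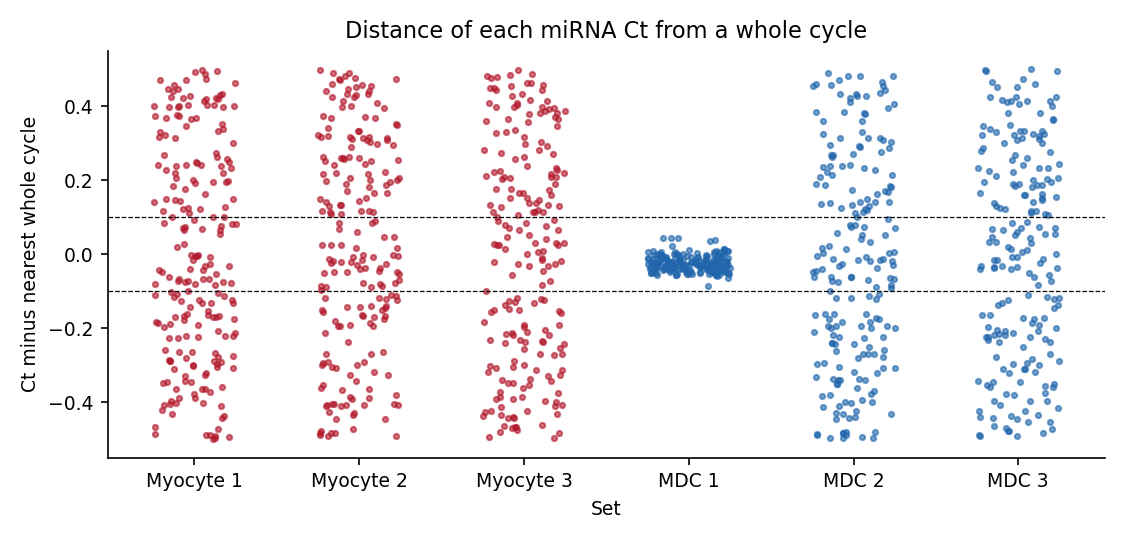
Each point is 1 miRNA with signal, plotted as its Ct minus the nearest whole cycle (y axis, cycles) for each of the 6 sets (x axis), with red for myocytes and blue for MDCs and dashed lines at 0.1 cycles on either side. All 201 points of MDC 1 lie between the lines, and the other sets fill the whole range.

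As background, the miR-200 family keeps epithelial cells epithelial. Its members repress the transcription factors ZEB1 and ZEB2, which silence E-cadherin, and ZEB1 and ZEB2 in turn repress the genes of the family, so that the loss of miR-200 and a mesenchymal state go together. miR-205 acts on the same targets, and miR-203 is known from skin, where it limits the self-renewal of epidermal progenitors by repressing p63. TGF-β signalling lowers miR-200 in epithelial cells. Adult heart muscle is not an epithelium, and no epithelial sample was measured here.

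The family falls into 2 groups by seed, the bases 2 to 8 that pair with target mRNAs. The mature sequences of the 4 members found as mature RNAs in the rat RefSeq table (GRCr8) are shown so that the 2 seeds of the family and the unrelated seeds of miR-203 and miR-205 can be compared. The capitals mark the seed.
rno-miR-141-3p: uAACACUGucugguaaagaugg
rno-miR-200c-3p: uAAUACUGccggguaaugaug
rno-miR-203a-3p: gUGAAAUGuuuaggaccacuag
rno-miR-205: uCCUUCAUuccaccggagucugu
Counted from the 5′ end of miR-141-3p, miR-200c-3p differs from it at C4U, U9C, U11G and A17U and is 1 base shorter. Only C4U lies in the seed. The letters of the miR-141 seed, AACACUG, occur in the hairpins of Mir141 and Mir200a, and those of the miR-200c seed, AAUACUG, in the hairpins of Mir200c, Mir200b and Mir429. Each seed was found on the given strand in 4 of all 419 rat hairpins in the table (0.955%), the others being Mir3575 and Mir3587 for the first and Mir145 for the second.

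The genes lie in 2 clusters and at 2 single loci of the GRCr8 assembly. Mir200c (chr4:159209965-159210033) and Mir141 (chr4:159209525-159209618) are 346 bases apart on the minus strand of chromosome 4. Mir200b (chr5:171931495-171931589), Mir200a (chr5:171930717-171930805) and Mir429 (chr5:171929682-171929766) lie within 1908 bases on the minus strand of chromosome 5. Mir203 is at chr6:137020705-137020801 on the plus strand and Mir205 at chr13:107564535-107564642 on the minus strand.

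In each myocyte set 5 of the 7 members gave a signal before the limit of 40 cycles, or 71.4%, beside 54.1% to 56.5% of all miRNAs on the card. In each MDC set 2 of the 7 did so, or 28.6%, beside 53.6% of all miRNAs. Of the 5 members seen on both myocyte cards, miR-200b, miR-200c and miR-205 had no signal on the MDC card. Over all 196 miRNAs seen on both myocyte cards, 39 had none there (19.9%). miR-200a and miR-429 had no signal in any set, and no member was seen in MDCs alone. As a gauge of lost wells, 23 of the 219 miRNAs with signal on either myocyte card were missing from the other card. Their median Ct was 33.5, and only 3 of the 168 miRNAs with a Ct before 30 on either card were among them.

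**Figure D2:**
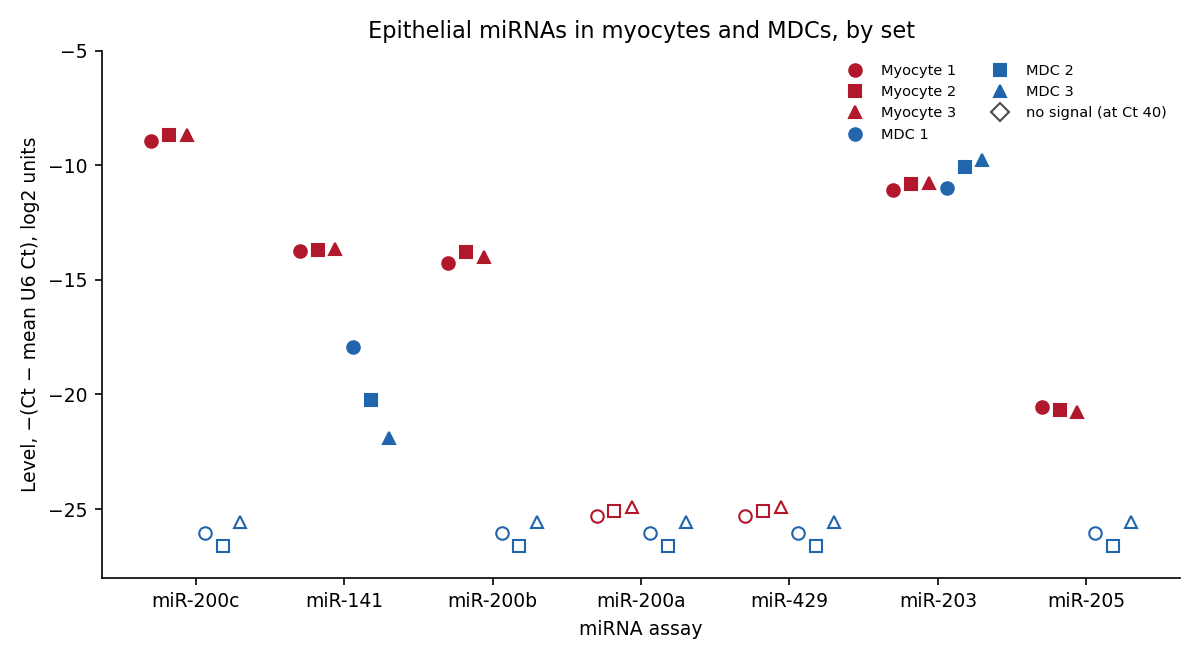
Level of each member (y axis, U6 mean minus Ct, log2 units) in each set (x axis by assay, shapes by set number, red for myocytes and blue for MDCs). Open symbols are wells without signal, drawn at the level that a Ct of 40 would have in that set; miR-200c, miR-200b and miR-205 are filled in myocytes only, and miR-203 lies at similar levels in both groups.

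Among the members without MDC signal, mmu-miR-200c had by far the earliest Ct in myocytes. It was 23.6, 23.6 and 23.8 in Myocyte 1, 2 and 3, and all 3 MDC sets, taken as readings of 1 card, had no signal. The absence in MDCs thus rests on 1 card. The myocyte level was −8.81 ± 0.19 (SD, n = 2 cards), and a Ct of 40 in MDCs puts the difference at −17.25 log2 units or lower. With a stricter limit the bound was −12.25 (Ct 35) or −9.25 (Ct 32). Only 3 of the 39 miRNAs without MDC signal had an earlier Ct in myocytes, namely miR-484 (22.3), the myosin-encoded miR-208 (22.4) and rno-miR-339-3p (23.5). Of 26 other miRNAs with a myocyte Ct within 1 cycle of miR-200c, 4 also had no MDC signal. In bulk RNA of this kind, fewer cells that make a miRNA and less of it per cell cannot be told apart.

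mmu-miR-141, the cluster partner of miR-200c, was the only member of the miR-200 family with a signal in MDCs. Its Ct was 28.4, 28.6 and 28.8 in Myocyte 1, 2 and 3, and 31.9, 33.6 and 36.3 in MDC 1, 2 and 3. Relative to U6 these are levels of −13.75, −13.69 and −13.66 in myocytes and −17.94, −20.23 and −21.89 in MDCs. The myocyte sets agree within 0.1 units while the MDC readings span several units. The difference was −6.31 ± 0.35 log2 units (standard error), 79.2-fold lower in MDCs (limma, adjusted p = 2.13e-39). In this comparison 82 of 157 miRNAs with signal on all cards were lower (52.2%), so a lower miRNA was the common case, and the median difference over all 157 was −0.80. Without MDC 1, 74 were lower and 54 higher and the median was −0.30. The standard error comes from the 2 myocyte cards, which gave all miRNAs a common SD of 0.28, and holds no spread among MDC cultures. An exact permutation of the 3 against 3 sets gave a two-sided p of 0.1, the smallest that this design allows, and it treats readings of 1 card as separate samples. Without MDC 1 the difference was −7.35. The paper, which classes miR-141 as a repressor of stemness and the cell cycle, had already reported it as suppressed in MDCs. It gives a fall of 2 or more orders of magnitude, and the 79.2-fold with all sets falls short of that. The call rests on the SD shared over all miRNAs in limma, and a test on the spread of miR-141 alone lost it after adjustment on the 3 cards but kept it when the 6 sets were taken as samples.

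The MDC readings of miR-141 are less certain than those of most miRNAs. From MDC 2 to MDC 3 its Ct moved by 2.71 cycles, the largest gap among the 201 miRNAs, whose median gap was 0.94. The next largest was that of miR-504, at 2.43. From MDC 2 to MDC 1 it moved by −1.70 cycles, the second lowest of 201, while the median miRNA moved by 1.86. The 3 readings taken alone gave differences of −4.23, −6.52 and −8.18 log2 units, which share the myocyte cards and 1 MDC card and are no test of MDC reproducibility. Between Myocyte 2 and Myocyte 3 the same assay moved by 0.17 cycles, close to the median of 0.18. How much of the MDC spread goes with the late Ct was not tested.

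**Figure D3:**
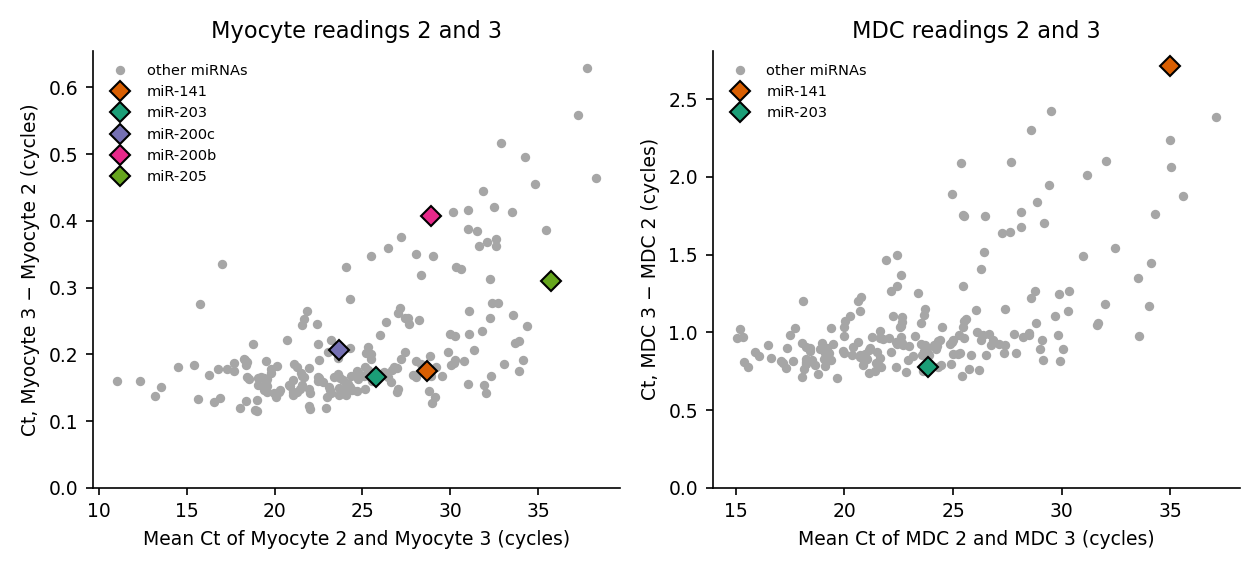
Difference in Ct between the readings 3 and 2 (y axis, cycles) against their mean Ct (x axis, cycles) for each miRNA with signal, in myocytes (left) and MDCs (right, 201 miRNAs). Members are drawn as diamonds, and miR-141 has the highest gap in MDCs, 2.71 cycles, while miR-203 has a gap of 0.78.

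In the chromosome 5 cluster, mmu-miR-200b alone gave a signal. Its Ct was 28.9, 28.7 and 29.1 in the myocyte sets, with no signal in MDCs. The level of −14.07 ± 0.26 (SD, n = 2 cards) bounds the difference at −12.00 log2 units or lower, or at −6.997 with a limit of Ct 35 and −3.997 with Ct 32. Of 21 other miRNAs within 1 cycle of its myocyte Ct, 5 had no MDC signal. miR-200b was also among the less steady myocyte wells, with a gap of 0.41 cycles between Myocyte 2 and Myocyte 3, the 12th highest among all miRNAs with signal there. Its neighbours miR-200a and miR-429, which have the seeds of miR-141 and of miR-200b respectively, were not detected in either cell type. The miR-141 seed was thus carried in myocytes by 1 detected member and the miR-200c seed by 2, and in MDCs only the first was left, at a lower level.

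mmu-miR-203 did not follow the family. The 3 myocyte sets gave a Ct of 25.8, 25.7 and 25.9, and MDC 1, 2 and 3 gave 24.96, 23.4 and 24.2. The levels were −11.10, −10.80 and −10.76 in myocytes and −10.98, −10.05 and −9.79 in MDCs, so that MDC 1 lies within the myocyte range and MDC 2 and MDC 3 lie above it. The difference of 0.66 ± 0.35 log2 units (standard error) did not pass limma (adjusted p = 0.0701), and its 95% interval runs from −0.02 to 1.35. Without MDC 1 it was 1.02 and passed (adjusted p = 0.00537, limma), and with MDC 1 alone it was −0.043 (adjusted p = 0.914, limma). Over all 157 miRNAs tested, 44 were higher in MDCs (28.0%). The exact permutation of the 6 sets, again with readings of 1 card as separate samples, gave a two-sided p of 0.3.

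miR-205 was at the edge of detection. Its Ct was 35.2, 35.6 and 35.9 in the myocyte sets, and MDCs had no signal. With a level of −20.62 ± 0.12 (SD, n = 2 cards), the difference is bounded at −5.44 log2 units or lower. The other 195 miRNAs seen on both myocyte cards all had an earlier mean Ct, and at a limit of Ct 35 miR-205 would count as undetected in both groups.

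The miRNAs whose levels over the 6 sets were most like those of miR-141, after each was centred on its own mean, were miR-542-5p, miR-107, rno-miR-450a, miR-337-5p and miR-30d, with root mean square differences of 1.00, 1.10, 1.16, 1.19 and 1.39 log2 units. The first had levels of −16.74, −16.35 and −16.35 in myocytes and −20.02, −21.26 and −22.09 in MDCs, the same order among the MDC readings as miR-141. For the members seen in myocytes only, the nearest of 36 other miRNAs with the same detected sets were miR-182 for miR-200b, rno-miR-339-3p for miR-200c and miR-302a for miR-205, with mean levels 0.01, 0.01 and 0.99 log2 units away. Mean levels of different assays are only loosely comparable.

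Other miRNAs enriched in epithelia gave mixed results. Of 8 such assays (the sensory cluster of miR-96, miR-182 and miR-183, the gut and kidney miRNAs miR-192, miR-194 and miR-215, the islet miRNA miR-375, and miR-184 of the cornea and lens), 3 were lower in MDCs, none was higher, 1 did not pass, 1 had signal in myocytes alone and the remaining 3 were undetected. Over all miRNAs, 52.2% of those tested were lower and 19.9% of those seen on both myocyte cards had no MDC signal. The 3 lower calls depend on the normalizer: none was lower with Y1, U87 or the mean of the other controls, and 4 were higher with either of the last 2. The Ct of miR-192 was 22.7, 22.9 and 23.0 in Myocyte 1 to 3 and 27.0, 24.9 and 25.8 in MDC 1 to 3, and its difference was −3.99 log2 units (−3.47 without MDC 1). miR-194 (−3.73, or −3.11 without MDC 1) and miR-184 (−2.18, or −1.52) were lower as well. miR-375 had a difference of 0.61 (adjusted p = 0.0971, limma), which without MDC 1 was 0.97 and passed (adjusted p = 0.00781, limma). miR-182, with a Ct of 28.9, 28.8 and 29.0, was seen in myocytes only, bounded at −12.00. The median difference of the 4 tested assays was −2.96, beside −0.80 over all 157, and without MDC 1 it was −2.32 beside −0.30.

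miRNAs linked to a mesenchymal state stood on the other side. The 9 assays were miR-9, miR-10b, miR-21, miR-155, miR-199a-3p, miR-199a-5p, miR-214, miR-221 and miR-222. Of these, 6 were higher in MDCs, none was lower and 3 were seen in MDCs only. Over all miRNAs, 28.0% of those tested were higher, and 17.4% of the 201 with MDC signal had none on either myocyte card. The paper, which classes miR-222 as proliferative, had already reported higher miR-222 in MDCs, and miR-221 there but not in myocytes. miR-214, made with miR-199a from a host antisense to a dynamin gene, was detected at 27.7, 28.2 and 28.5 cycles in Myocyte 1 to 3 and at 19.98, 18.0 and 18.9 cycles in MDC 1 to 3, a rise of 8.15 log2 units (8.65 without MDC 1). miR-21, abundant in activated fibroblasts, rose by 4.46 (4.70 without MDC 1), miR-155, which TGF-β induces in epithelial cells, by 2.77 (3.51) and miR-9, which represses E-cadherin, by 2.83 (3.40). miR-10b, an inducer of cell invasion, had no signal in myocytes and Ct values of 24.0, 22.1 and 23.1 in MDCs, a difference of at least 16.01 (16.44 without MDC 1). The median difference of the 6 tested assays was 5.24 log2 units (5.76 without MDC 1), and all 6 passed without MDC 1 too. Several of these miRNAs were known from earlier results of these data when the list was made, so the count is a description.

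**Figure D4:**
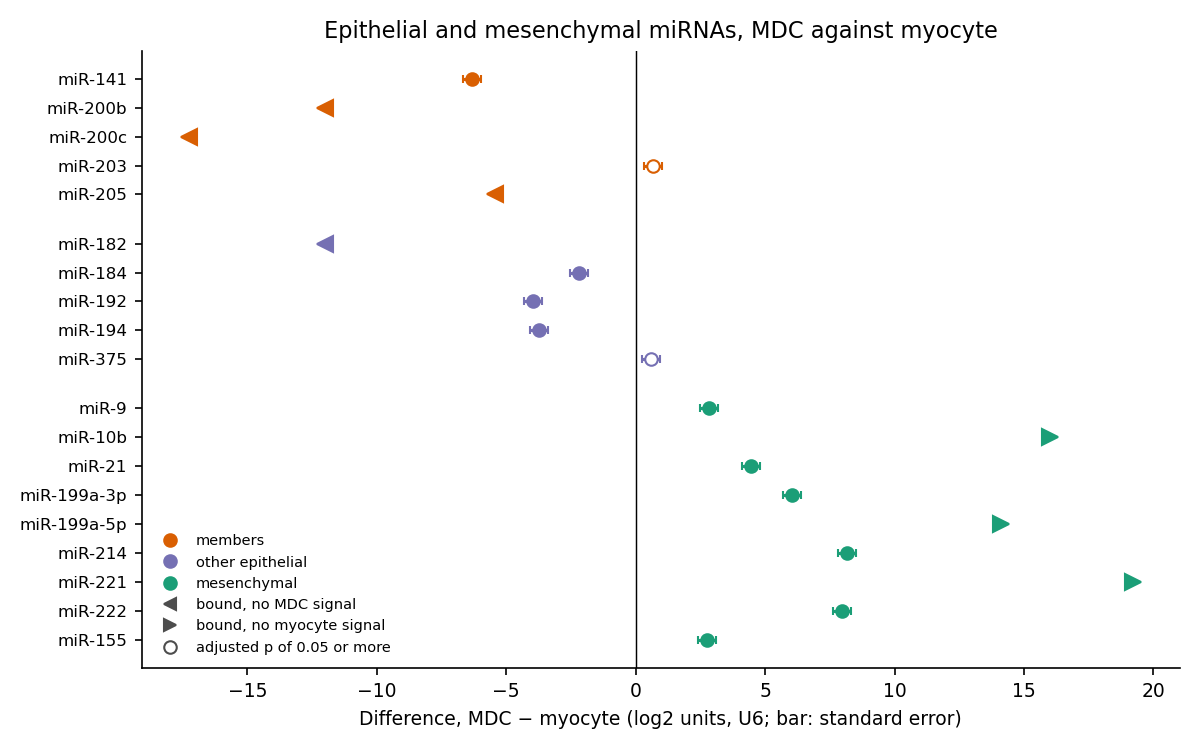
Difference between MDCs and myocytes relative to U6 (x axis, log2 units) for each member and each assay of the 2 lists with signal (y axis). Points are limma estimates with bars of 1 standard error (0.35), filled where the adjusted p is under 0.05, and triangles are bounds where a group had no signal; every mesenchymal assay lies to the right of 0.

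The labelled cell type of the myocytes matches its marker miRNAs. All 7 assays of miR-1, miR-133a, miR-133b, miR-208, miR-208b and miR-499 had signal there, 5 were lower in MDCs and 2 had no MDC signal. Over all miRNAs, 52.2% of those tested were lower and 19.9% of those seen on both myocyte cards had no MDC signal. The log2 summed level of these assays was 4.32 to 4.57 in myocytes and −8.09 to −7.30 in MDCs. The summed endothelial, leukocyte and smooth muscle markers were also lower in MDCs relative to U6, whereas the mesenchymal miRNAs above, fibroblast-linked ones among them, were higher. Both endothelial assays (miR-126) had signal in every set, with a log2 summed level of −3.78 to −3.35 in myocytes and −12.84 to −11.39 in MDCs. The 4 leukocyte assays (miR-142, miR-150 and miR-223) summed to −4.26 to −4.13 in myocytes, where 3 had signal, and to −13.74 to −11.50 in MDCs, where all 4 had. Of these, miR-142-5p was seen in MDCs alone, at a late Ct of 34.0 to 36.0. The other 3 differed in size, with miR-150 at −12.53 (−11.92 without MDC 1), miR-223 at −5.40 (−4.81) and miR-142-3p at −2.04 (−1.32). The 2 smooth muscle assays, miR-143 and miR-145, summed to −0.22 to −0.05 in myocytes and −2.90 to −1.73 in MDCs. The erythroid miR-451 had levels of −19.14 to −18.25 in myocytes and no signal in MDCs. The members themselves summed to −8.58 to −8.31 in myocytes and −10.97 to −9.79 in MDCs, where miR-203 alone had levels of −10.98 to −9.79. In its purified myocytes the paper saw no cells with the endothelial, stem cell or fibroblast markers it stained for. Transcripts of the non-myocyte antigens it examined by RT-PCR were undetectable there. The part of endothelial, blood or epithelial cells in the myocyte signal of the members was not tested.

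The size of the miR-141 difference turns on the normalizer. U6 had a mean Ct of 14.7 to 15.1 in myocytes and 13.4 to 14.4 in MDCs, and snoRNA135 lay between 21.9 and 22.5 in myocytes and between 20.5 and 22.0 in MDCs. Y1, a cytoplasmic RNA, was later in MDCs (Ct 22.0 to 25.5) than in myocytes (19.6 to 20.5), and the small nucleolar RNA U87 was later by far (31.0 to 33.2 against 18.5 to 18.7). Relative to snoRNA135 the miR-141 difference was −6.17 log2 units, relative to the mean of all detected miRNAs −5.40 and in raw Ct −5.39. It shrank to −1.82 with Y1 and to −0.069 with the mean of snoRNA135, Y1 and U87 (adjusted p = 0.868, limma), and with U87 alone it turned to 7.78. With the same mean of controls, the bounds of miR-200c and miR-200b stayed negative, at −11.02 and −5.76, and that of miR-205 gave no direction. miR-203 passed limma as higher with the mean of all detected miRNAs (1.57) and in raw Ct (1.58), but not with snoRNA135 (0.80).

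**Figure D5:**
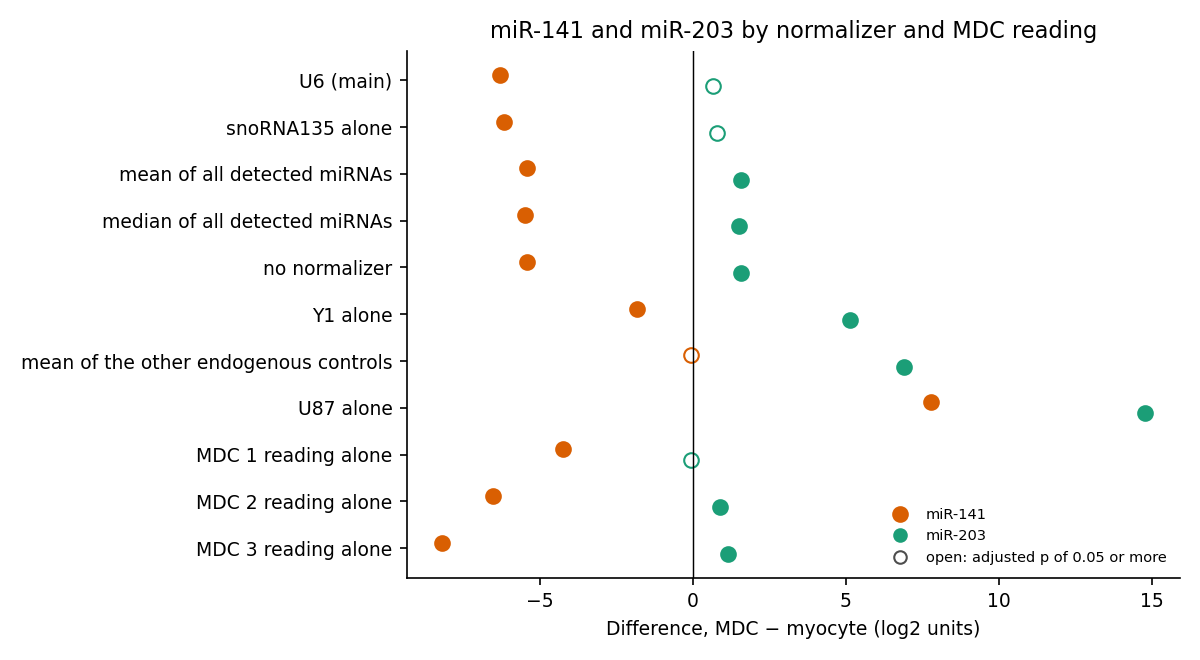
Difference between MDCs and myocytes (x axis, log2 units) of miR-141 and miR-203 with each normalizer and with each MDC reading alone (y axis), filled where the adjusted p from limma is under 0.05. miR-141 lies left of 0 except with U87, and reaches −0.069 with the mean of the other controls, while miR-203 lies near or right of 0 throughout.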

How the data were processed

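The authors ran reverse-transcribed and pre-amplified RNA on TaqMan Rodent MicroRNA cards, and the deposited files give the raw Ct of each well in PCR cycles and a table of Ct minus mean U6 Ct, which equals the raw values minus U6 within 5e-05 cycles and was used as a check only. Threshold and baseline settings are not given in the sources used here. The card has 384 wells, and "undetermined" and 40 were read as no signal.

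The test was limma (version 3.58.1, R 4.3.3) on U6-relative levels over the 157 miRNAs with signal on all cards, with Benjamini-Hochberg adjustment at 0.05. The fit gave every miRNA the same SD. Missing wells were set at 40 for bounds only. The unpaired test of the methods was an alternative. Fits were tested on simulated data. Plots used Python 3.11.15 and matplotlib 3.10.9. Members were taken by the naming rule and all of them are named. Members, lists and tests were chosen with earlier results of these data known. The design text gives 3 batches and the methods 2 biological and 2 technical repeats, neither tied to a set, so sets with identical wells without signal were averaged, and p-values may measure technical spread only.

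Alternatives were other normalizers, stricter Ct limits (35 and 32), no filter, other ways of counting the sets, a replicate block, leaving out each set, and trend moderation. The methods' t-test on all 6 sets was chosen later, with the data in view. Other miRNAs were named by likeness of level or from the lists.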

Additional observations from a re-analysis of the deposited data

How the results depend on the processing

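The direction of the miR-141 difference held under every alternative except U87 (7.78 log2 units). The call was lost with the mean of the other controls (−0.069), with the methods' t-test after adjustment (−6.31, adjusted p = 0.0783 in the family of 157 tests, against 0.00693 without adjustment), or, as a bound with some MDC readings missing, at limits of Ct 35 (−5.87) and Ct 32 (−4.33). miR-203 passed as higher with the global mean (1.57), the global median (1.5), raw Ct (1.58), Y1 (5.15), the mean of the other controls (6.90), U87 (14.76), a limit of Ct 32 or trend moderation (both 0.66), MDC 2 alone (0.88) and MDC 3 alone (1.15), and was −0.043 with MDC 1 alone. Leaving out each set gave −7.35 to −5.37 for miR-141 and 0.42 to 1.02 for miR-203, and for the latter only the value without MDC 1 passed.

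The bound of miR-205 was 0.79 with the mean of the other controls and 8.65 with U87, and that of miR-200b was 2.09 with U87, so these give no direction there, and only 1 of the 3 bounds stayed negative with U87. Limits of Ct 35 and Ct 32 moved the bound of miR-200c to −12.25 and −9.25 and that of miR-200b to −6.997 and −3.997. At a limit of Ct 35, 1 member had signal in MDC 3, and at Ct 32, 1 had signal in MDC 2 and 1 in MDC 3.

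Over all miRNAs, 82 lower and 44 higher became 10 and 140 with the mean of the other controls, 16 and 120 with Y1, 0 and 157 with U87, 43 and 20 with the methods' t-test without adjustment and 0 and 0 with it on the 3 cards, and 68 were higher without the filter. Of the other epithelial assays, none was lower and 4 were higher under U87 or the averaged other controls, 0 lower and 2 higher with Y1, and 1 was higher with raw Ct, the global mean or median, a limit of Ct 32, MDC 2 or MDC 3 alone, and without MDC 1 (range over left-out sets 0 to 1). The adjusted t-test on the 3 cards gave 0 lower epithelial and 0 higher mesenchymal calls. On the 6 sets, which counts readings of 1 card as samples, it gave 2 and 6, with 61 lower and 33 higher over all miRNAs and −6.32 for miR-141 (adjusted p = 0.0124).

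With all 6 sets as samples and the replicate number as a block, the miR-141 difference was −6.32 (adjusted p = 5.63e-06, limma) and that of miR-203 0.61. Same-numbered deviations correlated at 0.12, −0.08 and 0.24 over 157 miRNAs. Since several sets are taken as readings of 1 card, this cannot show whether same-numbered sets share a culture or animal. Without Myocyte 1 each group is 1 card and no test was possible.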

Other observations

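The letters of the miR-200c seed also stand in the hairpin of Mir145, a smooth muscle miRNA whose level here was −0.32 in myocytes and −2.31 in MDCs, which says nothing of the strand or arm that carries them. The plant miRNA ath-miR159a and snoRNA202 had no signal in any set. Of the rodent miRNAs on the card, 121 had no signal in any set, miR-200a and miR-429 among them.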
